A study of Mus musculus with 6 samples.

Results

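The comparison described here set mouse heart under pressure load with Snai1 knockdown against sham-operated heart, across all genes. Its members were the 4 samples of the 6 in the series that carry these labels, 2 with transverse aortic constriction (TAC) and knockdown and 2 with sham surgery. TAC ties a constriction around the aortic arch, so that the left ventricle pumps against a raised pressure. The sham mice were wild-type, the mice of the compared group had Snai1 knocked down with a short hairpin RNA and TAC, and all were sampled at 2 weeks. The 2 remaining samples, wild-type mice with TAC alone, shared the same 2-week time and entered the fit and the side-by-side values. A sham group with knockdown was not analysed here, so the step from sham to TAC with knockdown joins the surgery and the knockdown. The labels name no strain, sex, age, vector for the hairpin or cell type that it reached. They also do not tell whether a group's 2 samples are 2 animals, so each p-value reads only the spread among these samples, and that spread could be technical.

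A heart under pressure load is known to thicken its muscle, to recruit and expand macrophages, and to lay down matrix made by fibroblasts. Snail, the protein of Snai1, is a zinc finger repressor that binds E-box DNA and is known for its part in the transition of epithelium and endothelium to mesenchyme. Macrophages clear cell debris and signal to fibroblasts, platelets carry clotting and chemokine proteins made in megakaryocytes, and immediate early genes are switched on briefly by stretch, hormones or handling of tissue.

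In the deposited table the 2 columns of a group behaved as 60:40 and 40:60 mixtures of 2 libraries, and the values here are those of the resolved libraries. They held 14835957 and 17411297 reads in sham and 15254681 and 18247812 with knockdown, so that 3 reads made between 0.164 and 0.202 CPM (reads per 1000000 of the library total). The labels give the tissue as heart, while the series title names EndoFP, a term that is not explained, and the extraction text covers heart tissue and cultured cells. The tissue label was borne out for muscle: the 15 cardiomyocyte markers summed to 132100 and 131200 CPM in sham and 125400 and 134500 with knockdown. The T cell genes Cd3d and Cd3e held between 0 and 8 reads per library. The 2 libraries of a group were not alike in every respect. Sham replicate 1 had more globin reads than replicate 2 (2498 against 1287 CPM), and replicate 2 had more of Nr4a3 and Hspa1b, as given below. Knockdown replicate 1 stood above replicate 2 in the summed macrophage markers (1198 against 812.3 CPM). How far the calls rest on single libraries is given beside each group of genes.

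Of 14447 genes tested, 20 rose (0.138%) and 15 fell (0.104%) from sham to TAC with knockdown, 35 in all (0.242%; limma on log2 CPM with 0.5 reads added, Benjamini-Hochberg adjusted p below 0.05). Fold changes of the genes that rose ran from 1.54 to 18, and those of the genes that fell from 1.69 to 18.3. The median log2 difference of all genes tested was 0.05. Among the gene lists described below, the macrophage list held the most genes that rose (6) and the platelet list the most that fell (3). All lists were written with earlier results of these data known. A share of called members set beside that of all genes is therefore a description and no test. A total of 1271 genes had an unadjusted p below 0.05.

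**Figure D1:**
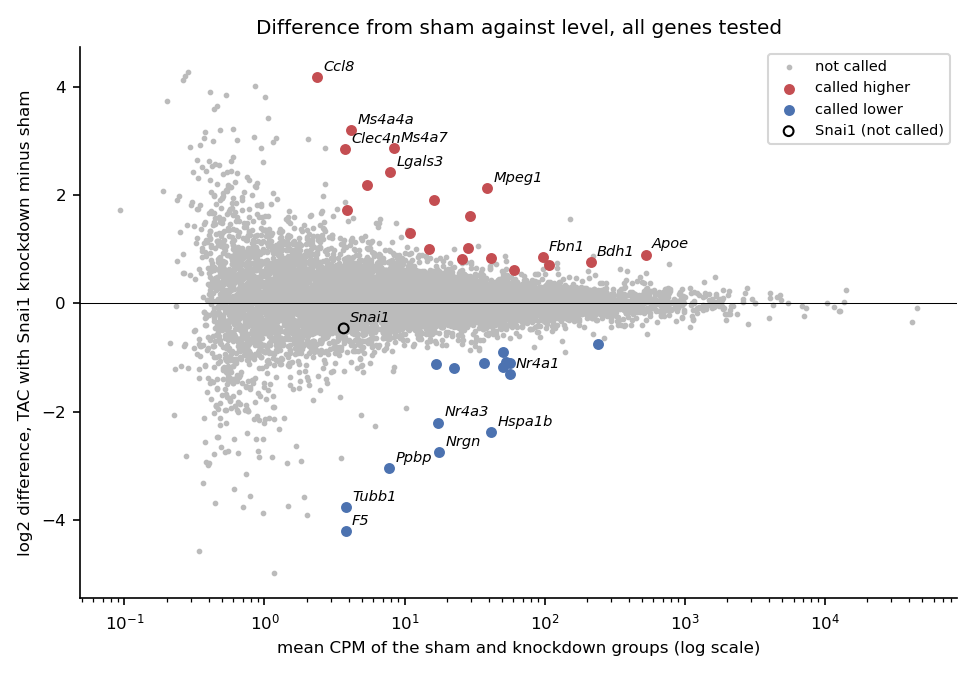
Log2 difference between TAC with Snai1 knockdown and sham (vertical) against the mean CPM of the 2 groups (horizontal, log scale) for the 14447 genes tested. The 20 genes called higher and 15 called lower are coloured, and Snai1, circled, lies among the genes that were not called at a log2 difference of -0.46.

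Snai1 itself (chr2:167538195-167542814, plus strand, GRCm38) had 76 and 60 reads in sham and 52 and 50 with knockdown. These made 5.12 and 3.45 CPM in sham, 4.48 and 4.24 in TAC alone, and 3.41 and 2.74 in the knockdown libraries. The groups of knockdown and sham did not overlap, the nearest pair being 3.41 and 3.45 CPM. Of all genes, 13.9% lay below sham in this way. The log2 difference was -0.46 ± 0.33 (SE) and did not pass the test (limma adjusted p = 0.745). It was -0.17 with sham replicate 1 left out and -0.74 with sham replicate 2 left out. Against TAC alone the log2 difference of Snai1 was -0.51 ± 0.33, with a 95% interval of -1.22 to 0.21. It did not pass either (limma adjusted p = 0.999). A knockdown of Snai1 was therefore seen in these libraries as a direction only, and the group is called by its label. Among other factors of the mesenchymal transition, Snai2, which encodes Slug, had a log2 difference of -0.28 ± 0.28 and Zeb2, a zinc finger repressor gene, 0.27 ± 0.17. Of 14 tested genes of the list of mesenchymal transition factors and targets, none was called and the median log2 difference was -0.01.

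Since Snail binds the E-box CAGGTG, which reads as CACCTG on the other strand, the promoter windows of the 35 called genes were searched for it, from 250 bases before to 50 after the start (RefSeq, GRCm38.p6). Windows were found for 31 of the genes, 38 in all. The E-box was present in 7 of them (18.4%), 4 of genes that rose (Lgals3, Apoe, Hpgds and Stab1) and 3 of genes that fell (Angptl7, Wif1 and Rhobtb1). Among the 13888 windows of all tested genes the share was 17.8%. The Snai1 promoter holds 1 copy, that of Lgals3, the galectin-3 gene of macrophages, 2, and that of Angptl7, an angiopoietin-like secreted protein gene, 1. They are shown for the targeted gene and for 1 gene that rose and 1 that fell, with the E-box in capitals, on the strand of the gene. The windows are chr2:167537945-167538244 (plus), chr14:47373610-47373909 (plus) and chr4:148500413-148500712 (minus).
Snai1: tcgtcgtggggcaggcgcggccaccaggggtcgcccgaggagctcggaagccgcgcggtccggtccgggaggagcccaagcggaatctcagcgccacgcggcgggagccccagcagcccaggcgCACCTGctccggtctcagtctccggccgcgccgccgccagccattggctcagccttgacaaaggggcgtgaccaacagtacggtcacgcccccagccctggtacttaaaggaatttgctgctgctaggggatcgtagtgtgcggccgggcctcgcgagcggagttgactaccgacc
Lgals3: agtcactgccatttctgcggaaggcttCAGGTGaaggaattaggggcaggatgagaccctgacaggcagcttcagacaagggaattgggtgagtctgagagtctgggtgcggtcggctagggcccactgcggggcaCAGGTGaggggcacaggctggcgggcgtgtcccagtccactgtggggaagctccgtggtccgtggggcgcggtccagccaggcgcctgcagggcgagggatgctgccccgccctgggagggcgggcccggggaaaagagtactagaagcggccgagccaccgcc
Angptl7: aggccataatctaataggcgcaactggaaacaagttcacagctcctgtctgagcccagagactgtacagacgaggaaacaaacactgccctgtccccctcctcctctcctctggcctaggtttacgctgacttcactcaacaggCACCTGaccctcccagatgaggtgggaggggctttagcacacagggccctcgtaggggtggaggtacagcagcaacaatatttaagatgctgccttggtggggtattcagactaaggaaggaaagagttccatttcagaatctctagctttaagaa
The match is a match of letters and was not tested as a site.

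The markers of macrophages were higher in TAC with knockdown than in sham. Of 34 tested monocyte and macrophage markers, 6 rose (17.6%, against 0.138% of all genes) and none fell. The median log2 difference was 0.66 against 0.05 for all genes. As the list was written with earlier results of these data known, these shares describe it and are no test. Both knockdown libraries lay above both sham libraries for 24 of the 34 (70.6%, against 25.5% of all genes) and below for 4 (11.8%, against 13.9%). The list summed to 602.1 and 552.7 CPM in sham and to 1198 and 812.3 with knockdown, so that the groups did not overlap. The count of 6 depended on single libraries and on the method: it was 1 (Mpeg1) without knockdown replicate 1, 3 without sham replicate 2, 8 without knockdown replicate 2, 2 (Mpeg1 and Cd68) with limma-voom, and 4 with the robust prior or no filter on low counts. In bulk tissue, more cells of a type and more RNA per cell cannot be told apart.

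Mpeg1 (chr19:12460779-12465283, plus strand), whose product perforin-2 forms pores in engulfed bacteria, stood at 14.8 and 13.2 CPM in sham and at 82.1 and 45.7 with knockdown. It rose 4.39-fold (log2 2.13 ± 0.21, limma adjusted p = 5.25e-04) and kept its call in all 6 fits without 1 library. Both knockdown libraries were over 3 times the higher sham library. Ms4a4a (chr19:11375523-11392790, plus strand), a membrane protein gene of the MS4A cluster, had 0.607 and 0.976 CPM in sham and 9.37 and 5.75 with knockdown, a rise of 9.19-fold. Its neighbour Ms4a7 (chr19:11321039-11336146, minus strand) had 2.63 and 1.38 CPM against 19.9 and 9.97, a rise of 7.30-fold. For both genes the lower knockdown library was well above the higher sham library, and the call was kept in 5 and 4 of the 6 fits.

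Clec4n, which encodes the fungal pattern receptor dectin-2, went from 0.741 and 1.03 CPM to 7.93 and 5.37, a rise of 7.23-fold. Lgals3 went from 3.30 and 1.55 to 18.8 and 8.06, a rise of 5.38-fold. Cd68 (chr11:69664213-69666153, minus strand), a lysosomal membrane protein of macrophages, went from 20.4 and 9.42 to 53.0 and 34.3, a rise of 3.07-fold. In Cd68 the sham libraries differed by more than 2 times from each other, and its call was kept in 1 of the 6 fits, that without sham replicate 1 (log2 2.17), and its log2 difference was 1.06 without sham replicate 2. Lgals3 had 1.82 without knockdown replicate 1 (limma adjusted p = 0.41) and 3.04 without replicate 2. Members that did not pass over all genes were Lyz2, the lysozyme gene (log2 0.88 ± 0.18, limma adjusted p = 0.0846), and C1qc, a chain of the complement starter C1q (0.88 ± 0.19, adjusted p = 0.105).

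Some members of the macrophage list lay the other way. Timd4 and Lyve1, known as markers of long-lived resident macrophages, had 3.71 and 2.13 CPM and 21.1 and 29.1 CPM in sham and 1.64 and 0.658 CPM and 14.0 and 15.2 CPM with knockdown. Their log2 differences of -1.41 ± 0.55 and -0.76 ± 0.21 did not pass the test (limma adjusted p = 0.482 and 0.261), and both were picked out after their values were seen. Ccr2, the chemokine receptor of recruited monocytes, had 2.70 and 3.33 CPM in sham and 2.95 and 2.41 with knockdown, so that the groups overlapped. Trem2, a lipid-sensing receptor of macrophages also picked out after its values were seen, had 1.21 and 1.72 CPM in sham and 8.72 and 3.29 with knockdown (log2 1.87 ± 0.45, adjusted p = 0.161). The median of the list was 0.47 without knockdown replicate 1 and 1.07 without knockdown replicate 2.

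Other genes of immune cells and inflammation that rose stood outside the macrophage list, and the cells they came from were not tested. Ccl8 (chr11:82115185-82116799, plus strand), a chemokine gene, had 4 and 2 reads in sham and 110 and 35 with knockdown. Its fitted rise of 18-fold (log2 4.17 ± 0.68, limma adjusted p = 0.0237) depends on the 0.5 reads added, and the knockdown libraries differed by more than 3 times in CPM, at 7.21 and 1.92. Lilr4b (chr10:51480632-51486703, plus strand), a leukocyte immunoglobulin-like receptor gene with a near-identical neighbour with which it may share reads, rose 3.75-fold, from 7.75 and 5.57 CPM to 33.2 and 18.4. Hpgds, the hematopoietic prostaglandin D synthase gene, rose 4.57-fold, from 2.09 and 1.49 CPM to 12.5 and 5.37. C3ar1, the receptor of the complement fragment C3a, rose 2.46-fold, from 6.47 and 6.03 to 18.2 and 13 CPM. Cybb, the catalytic subunit of the phagocyte oxidase, rose 2.00-fold, from 10.6 and 9.13 CPM to 21.4 and 18.2, and Stab1, a scavenger receptor gene, 1.63-fold, from 1173 and 1462 reads to 2288 and 2154. The groups did not overlap for any of these genes, which their choice by call on the same libraries favours. Knockdown replicate 1 was the higher knockdown library in each. Without that library none of these 6 genes was called, with log2 differences of 3.22 for Ccl8, 1.48 for Lilr4b, 1.59 for Hpgds, 1.05 for C3ar1, 0.88 for Cybb and 0.53 for Stab1. C3ar1, Cybb and Stab1 were called in none of the 6 fits without 1 library.

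Lipid carriers were among the genes that rose. Apoe (chr7:19696109-19699188, minus strand), the gene of apolipoprotein E, a protein part of lipoproteins, stood at 349.1 and 375.9 CPM in sham and at 860.0 and 531.7 with knockdown. It rose 1.87-fold (log2 0.90 ± 0.17, limma adjusted p = 0.0443). Its log2 difference was 0.55 without knockdown replicate 1 (adjusted p = 0.379) and 1.25 without replicate 2, and only the latter of the 6 fits called it. With quantile normalization, limma-voom or the robust prior its adjusted p was 0.0865, 0.0559 or 0.134. Pltp, which moves phospholipid between lipoproteins, rose 2.02-fold, from 17.5 and 19.8 CPM to 43.1 and 32.8, and was called in 3 of the 6 fits. With Cd68 and Lgals3, which the macrophage list also holds, Apoe made 3 genes of 24 (12.5%, against 0.138% of all genes) that rose in the list of lysosome and cholesterol efflux genes, with a list median of 0.22. That count was 1 with limma-voom and 0 with the robust prior, with no filter on low counts, and without knockdown replicate 1 or sham replicate 2. C4b, the complement C4 gene, which has a close copy, rose 1.79-fold, from 32.8 and 26.5 CPM to 57.2 and 48.4, and with C3ar1 made 2 of 17 complement genes (11.8%, against 0.138%) that rose. C4b was called in 1 of the 6 fits without 1 library and C3ar1 in 0, and with limma-voom neither was. The complement median was 0.35, and 0.18 without knockdown replicate 1 and 0.63 without replicate 2. C3 stood at 154.9 and 166.4 CPM in sham and at 286.8 and 206.3 with knockdown (log2 0.60 ± 0.14, adjusted p = 0.161).

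Families of receptors were looked up by symbol after the called genes were seen, and are described without a test. Over all genes 8614 of 14447 had a positive log2 difference. Of 8 tested MS4A genes, 7 had positive log2 differences, the exception being Ms4a1, the B cell antigen CD20, with 45 and 4 reads in sham and 4 and 2 with knockdown. Ms4a14 had 2.09 and 1.03 CPM in sham and 5.64 and 3.67 with knockdown (log2 1.61 ± 0.43, limma adjusted p = 0.238). All 9 tested CD300 receptor genes had positive differences, from 0.26 to 2.20, and 0 of them were called. For 8 of the 9 both knockdown libraries lay above both sham libraries (25.5% of all genes did). Cd300a was the highest of these, with 17 and 13 reads in sham and 85 and 62 with knockdown (adjusted p = 0.0846). The CD300 genes lie close together and resemble each other, so reads may be split between them. In the Clec4 family, to which the called Clec4n belongs, 5 of 7 tested genes had positive and 2 negative differences, from -1.32 to 2.85. For 4 of the 7 both knockdown libraries lay above both sham libraries. Another 2 CD300, 5 MS4A and 3 Clec4 genes held too few reads to be tested, with at most 20 in any library.

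**Figure D2:**
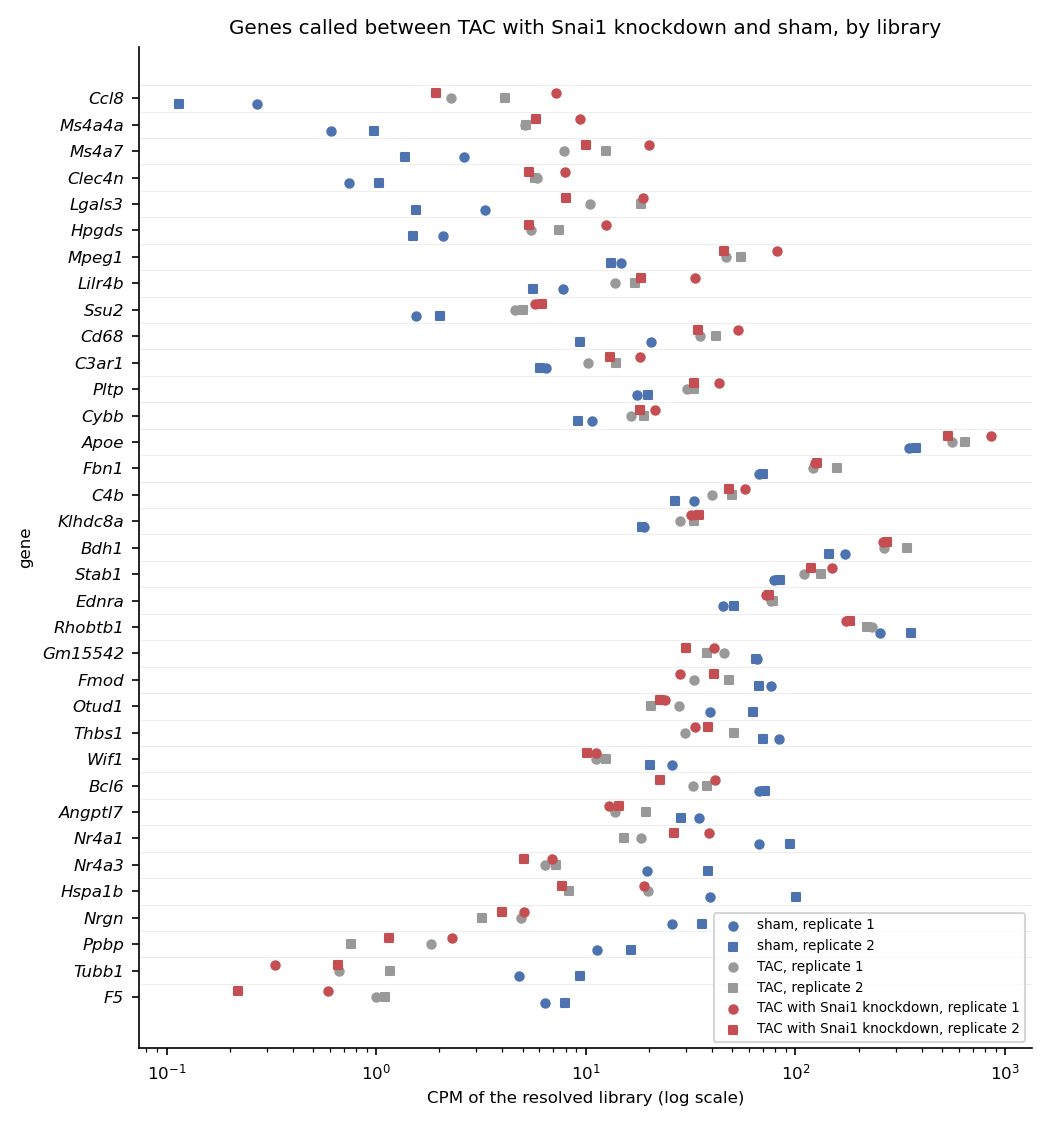
CPM (log scale) of the 35 called genes in each resolved library, ordered by their log2 difference from sham. Circles are replicate 1 and squares replicate 2. In every row both knockdown libraries lie on one side of both sham libraries, which the choice of rows by their calls on these libraries favours. Of all genes, 25.5% lay above sham in this way and 13.9% below. The widest gaps are those of Ccl8 and Ms4a4a at the top and F5 and Tubb1 at the bottom.

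The markers of platelets were lower in TAC with knockdown than in sham. Of 14 tested platelet markers, 3 fell (21.4%, against 0.104% of all genes) and none rose, and the median log2 difference was -2.20. This list too was written with earlier results of these data known, and its shares are no test. Both knockdown libraries lay below both sham libraries for all 14 tested members, against 13.9% of all genes. The filter on low counts can be met by the 2 sham libraries alone, which favours members that lie below sham. That limit holds for this count and for the median. The count of 3 was 1 (Nrgn) without sham replicate 2, 2 without either knockdown library and 2 with limma-voom. Another 2 markers, Gp6 and F2rl2, held too few reads to be tested. Gp6 had 19 and 10 reads in sham and 0 and 0 with knockdown, and F2rl2 had 6 and 20 against 4 and 2. The list summed to 85.3 and 125.0 CPM in sham and to 30.9 and 26.7 with knockdown. The erythroid list, another blood marker, summed to 2550 and 1323 CPM in sham and to 1133 and 1647 with knockdown, so that its groups overlapped, and its median of -0.39 turned to 0.08 without sham replicate 1. The part of blood left in the tissue in the platelet result was not tested.

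Nrgn (chr9:37544492-37552904, minus strand), the gene of neurogranin, a protein that binds calmodulin and is also found in platelets, stood at 25.7 and 35.9 CPM in sham and at 5.05 and 4 with knockdown. It fell 6.73-fold (log2 -2.75 ± 0.27, limma adjusted p = 5.25e-04) and kept its call in all 6 fits without 1 library. Ppbp (chr5:90768518-90770063, plus strand), the precursor of several platelet chemokines, had 11.3 and 16.5 CPM in sham and 2.29 and 1.15 with knockdown, a fall of 8.25-fold. Tubb1, the platelet form of beta tubulin, had 71 and 164 reads in sham and 5 and 12 with knockdown, a fall of 13.6-fold. F5 (chr1:164151838-164220277, plus strand), the clotting factor V gene, which stood outside the list and whose protein platelets also carry, had 95 and 139 reads in sham and 9 and 4 with knockdown, a fall of 18.3-fold (log2 -4.20 ± 0.56, adjusted p = 0.00587). For F5 and Tubb1 the lower sham library was over 7 times the higher knockdown library in CPM, and their calls were kept in 5 and 4 of the 6 fits.

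Members that did not pass were Itga2b, the integrin alpha chain of platelets (6.27 and 14.5 CPM against 2.43 and 1.59, log2 -2.26 ± 0.47, limma adjusted p = 0.084), and Gp9, a subunit of the receptor for von Willebrand factor (50 and 62 reads against 9 and 2, adjusted p = 0.222). Pf4, a platelet chemokine gene also read in macrophages, lay closer to sham, at 9.98 and 12.8 CPM against 7.47 and 7.29 (log2 -0.61 ± 0.23). Vwf, the von Willebrand factor gene of endothelium and megakaryocytes, lay the other way, at 89.8 and 102.2 CPM in sham and 169.1 and 133.8 with knockdown (log2 0.65 ± 0.14, adjusted p = 0.0933).

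Nuclear receptors of the NR4A family, which many stimuli induce within a short time, were lower with knockdown and TAC than in sham, and 2 of the 3 fell. Nr4a1 (chr15:101254269-101274795, plus strand) stood at 66.9 and 93.9 CPM in sham and at 38.7 and 26.2 with knockdown, a fall of 2.49-fold (log2 -1.31 ± 0.20, limma adjusted p = 0.014). Nr4a3 (chr4:48045153-48086447, plus strand) stood at 19.6 and 38.3 CPM in sham and at 6.88 and 5.10 with knockdown, a fall of 4.61-fold (log2 -2.20 ± 0.28, adjusted p = 0.0047). The third member, Nr4a2, had 4.45 and 5.57 CPM against 3.47 and 2.03 (log2 -0.90 ± 0.37, adjusted p = 0.507). For all 3 genes the groups did not overlap, which for the 2 called genes the choice by call favours. Sham replicate 2 was the higher sham library in each. Of 26 tested immediate early and NR4A genes, these 2 fell (7.69%, against 0.104% of all genes) and none rose, and the median was -0.18. That median was -0.33 without sham replicate 1, -0.21 without sham replicate 2, -0.35 without knockdown replicate 1 and -0.13 without knockdown replicate 2. Neither Nr4a1 nor Nr4a3 was called without sham replicate 2 (log2 -1.07 and -1.72) or without knockdown replicate 2 (-1.03 and -1.99). Both knockdown libraries lay below both sham libraries for 11 of the 26 (42.3%, against 13.9% of all genes). Fos, a subunit of the factor AP-1, had a log2 difference of -0.61 ± 0.47, and Atf3, a stress factor, had 9.50 and 23.5 CPM against 3.87 and 3.95 (log2 -1.93 ± 0.40, adjusted p = 0.0846).

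Heat shock genes lay on the same side. Hspa1b (chr17:34956436-34959238, minus strand), an inducible HSP70 gene, stood at 39.3 and 100.5 CPM in sham and at 18.9 and 7.67 with knockdown, a fall of 5.20-fold (log2 -2.38 ± 0.45, limma adjusted p = 0.0457). Its near-identical neighbour Hspa1a, with which it may share reads, had 16 and 41.8 CPM against 9.24 and 1.53 (adjusted p = 0.106). The sham libraries differed by more than 2 times in both genes, and the call of Hspa1b was kept in 3 of the 6 fits. It was lost without sham replicate 2 (log2 -1.70, adjusted p = 0.349) and without either knockdown library. It was also lost with limma-voom (adjusted p = 0.0576), quantile normalization (0.0738) and the robust prior (0.591). Of 23 tested heat shock and cochaperone genes, Hspa1b alone fell (4.35%, against 0.104%), none rose, and the median was -0.26. Both knockdown libraries lay below both sham libraries for 13 of the 23 (56.5%, against 13.9%). Hsph1, an HSP110 gene (85.2 and 127.9 CPM against 66.5 and 54.0, adjusted p = 0.0846), and Hspa8, the constitutive HSC70 gene (1139 and 1367 CPM against 922.0 and 935.2, adjusted p = 0.25), did not pass. Hspa5, the chaperone of the endoplasmic reticulum, lay above sham (log2 0.29 ± 0.10, adjusted p = 0.39).

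The windows of the called genes were also searched for elements that respond to cyclic AMP or heat, for a PU.1 and ETS box and for a GATA box. The promoters of these 3 called genes are shown with the cyclic AMP or heat matches in capitals. The half-site TGACG, which reads as CGTCA on the other strand, which is part of the full element TGACGTCA, occurs 4 times in each NR4A promoter, and in 29.5% of all windows against 8 of the 38 of called genes (21.1%). The full element was in 0 of the 38 windows and in 2.79% of all. The heat shock element GAANNTTC, which reads the same on both strands, occurs once in Hspa1b, in 2 of the 38 windows (5.26%) and in 5.67% of all. The PU.1 and ETS box GAGGAAGT was in 1 of the 38 windows (2.63%, against 3.09% of all). The GATA box AGATAA was in 4 (10.5%, against 6.56% of all). The windows shown are chr15:101266596-101266895 (plus), chr4:48045055-48045354 (plus) and chr17:34959189-34959488 (minus).
Nr4a1: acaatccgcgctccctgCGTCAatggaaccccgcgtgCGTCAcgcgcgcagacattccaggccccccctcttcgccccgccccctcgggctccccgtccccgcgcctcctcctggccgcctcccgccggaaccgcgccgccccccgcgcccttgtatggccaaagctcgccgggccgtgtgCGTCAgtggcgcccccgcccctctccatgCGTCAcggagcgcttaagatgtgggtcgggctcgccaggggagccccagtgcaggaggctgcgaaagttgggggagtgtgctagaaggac
Nr4a3: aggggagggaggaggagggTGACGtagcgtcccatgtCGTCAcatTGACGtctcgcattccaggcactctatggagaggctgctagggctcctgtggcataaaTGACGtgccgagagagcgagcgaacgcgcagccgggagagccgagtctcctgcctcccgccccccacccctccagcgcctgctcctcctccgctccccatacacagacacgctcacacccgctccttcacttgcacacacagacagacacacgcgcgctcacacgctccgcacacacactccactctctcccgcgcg
Hspa1b: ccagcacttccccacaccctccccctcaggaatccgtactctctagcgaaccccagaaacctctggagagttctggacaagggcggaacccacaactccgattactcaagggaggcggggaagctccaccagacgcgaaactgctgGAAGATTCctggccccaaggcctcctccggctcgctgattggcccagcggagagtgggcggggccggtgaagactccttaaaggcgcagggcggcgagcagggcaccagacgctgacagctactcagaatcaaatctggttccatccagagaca
These are matches of letters, and no binding was measured.

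Few genes of the matrix lists were called. Fbn1 (chr2:125300594-125507993, minus strand), the gene of fibrillin-1, of which microfibrils are built, rose 1.82-fold. It went from 67.3 and 70.3 CPM in sham to 124.5 and 126.0 with knockdown (log2 0.86 ± 0.13, limma adjusted p = 0.013). The libraries of each group lay close together. It was the only one of 20 tested microfibril and elastic fibre genes (5%, against 0.138%) to pass, with a list median of 0.17. Thbs1 (chr2:118111876-118127133, plus strand), the matricellular protein thrombospondin-1, which activates TGF-beta and is also carried by platelets, fell 2.14-fold, from 83.4 and 69.9 CPM to 33.2 and 38.4. It was the only one of 16 matricellular genes (6.25%, against 0.104%) to pass. Outside those lists, Fmod (chr1:134037254-134048277, plus strand), the collagen-binding proteoglycan fibromodulin, fell 2.11-fold, from 76.3 and 67.3 CPM to 28.0 and 41.0. Angptl7 fell 2.29-fold, from 34.6 and 28.4 CPM to 12.9 and 14.5, and Wif1, a secreted Wnt inhibitor gene, 2.16-fold, from 25.9 and 20.3 CPM to 11.1 and 10.1. In each of these genes the 2 groups were apart by more than the spread within either, which their choice by call on the same libraries favours. The calls were kept in 3 of the 6 fits without 1 library for Fbn1 and Fmod, in 2 for Thbs1 and Angptl7 and in 0 for Wif1.

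None of 18 tested collagen genes was called, although both knockdown libraries lay above both sham libraries for 13 of them (72.2%, against 25.5% of all genes). The median was 0.19. Col3a1 stood at 185.7 and 165.2 CPM in sham and at 246.0 and 239.9 with knockdown (log2 0.47 ± 0.19, limma adjusted p = 0.503). Col1a1 stood at 161.3 and 155.6 against 166.5 and 163.9 (log2 0.06 ± 0.17), and Col4a1, a basement membrane chain, at 389.9 and 473.9 against 624.1 and 639.9 (0.56 ± 0.14, adjusted p = 0.215). Of 16 basement membrane genes 0 were called, with a median of 0.18, and of 15 activated fibroblast genes 0, with a median of -0.07. Postn, the periostin gene of activated fibroblasts, stood at 107.1 and 89.8 CPM against 113.9 and 126.5 (log2 0.29 ± 0.21). Resting fibroblast (median 0.18), endothelial (0.20) and smooth muscle and pericyte markers (0.25) had no called member among 14, 20 and 13.

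Genes outside these groups also changed. Bdh1 (chr16:31422280-31458901, plus strand), the mitochondrial enzyme that opens ketone body use, rose 1.70-fold, from 171.6 and 144.8 CPM in sham to 261.5 and 274.0 with knockdown (log2 0.76 ± 0.13, limma adjusted p = 0.0306). It was the only called gene of 12 tested ketone and branched-chain genes (8.33%, against 0.138% of all genes that rose). Ednra, a receptor for the vasoconstrictor endothelin, rose 1.54-fold, from 45.2 and 50.7 CPM to 72.2 and 74.8. Klhdc8a, a kelch repeat protein gene, rose 1.77-fold, from 18.9 and 18.6 to 31.7 and 34.5 CPM, and Ssu2 3.32-fold, from 23 and 35 reads to 87 and 113. Rhobtb1 fell 1.69-fold, from 254.0 and 355.0 CPM to 173.5 and 182.6. Bcl6, a transcriptional repressor, fell 2.27-fold, from 67.1 and 71.8 CPM to 41.4 and 22.5, and Otud1, a deubiquitinase gene, 2.13-fold, from 39.2 and 62.7 CPM to 23.9 and 22.6. The last of the 15 genes that fell is annotated as a processed pseudogene and is not described. The groups did not overlap for any of these genes, which their choice by call favours. Bcl6 had a log2 difference of -1.62 without knockdown replicate 1, the only one of the 6 fits that called it, and of -0.74 without replicate 2 (limma adjusted p = 0.204). Rhobtb1 and Otud1 were each called only in the fit that left out sham replicate 1, and had -0.51 and -0.75 when sham replicate 2 was left out. Bdh1 was called in 3 of the 6 fits, and Ednra, Klhdc8a and Ssu2 in 0.

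Of 16 tested cardiac load and fetal genes 0 were called, and the median was 0.17. Nppa, the atrial natriuretic peptide gene, stood at 113.4 and 68.2 CPM in sham and at 105.7 and 205.1 with knockdown, so that the groups overlapped (log2 0.74 ± 0.31, limma adjusted p = 0.517). Nppb, the brain natriuretic peptide gene, stood at 79.5 and 70.9 against 97.0 and 163.1, and Acta1, the skeletal actin gene re-expressed under load, at 600.8 and 515.4 against 605.8 and 1379. In these genes knockdown replicate 1 lay within or near the sham range and replicate 2 well above it. Fhl2, a LIM protein of the sarcomere, stood at 1422 and 1319 against 1894 and 1928 (log2 0.48 ± 0.12, adjusted p = 0.164). Cardiomyocyte markers had a median of 0.01, calcium handling genes of -0.02, fatty acid genes of -0.05, glycolytic genes of 0.08 and respiratory chain genes of 0.08, with 0 called members among 15, 19, 28, 25 and 30. Cell cycle genes had 0 called of 30 and a median of 0.25.

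Interferon-stimulated genes stood on the higher side without a called member. Of 29 tested, 26 had positive log2 differences, the median was 0.39, and for 15 (51.7%, against 25.5%) both knockdown libraries lay above both sham libraries. Ifi27l2a stood at 9.50 and 8.90 CPM in sham and at 19.7 and 14.9 with knockdown (log2 0.89 ± 0.20, limma adjusted p = 0.139), and Oasl2, an oligoadenylate synthetase-like gene, at 12.1 and 8.10 against 20.8 and 16 (0.88 ± 0.22, adjusted p = 0.192). The median was 0.15 without knockdown replicate 1 and 0.50 without sham replicate 1. In the prostaglandin list Hpgds alone was called of 15 (6.67%, against 0.138% of all genes that rose). The median of that list was 0.41, or 0.17 without knockdown replicate 1. Ptgds, the lipocalin-type prostaglandin D synthase gene, stood at 349.4 and 270.3 CPM in sham and at 497.0 and 437.9 with knockdown (0.60 ± 0.15, adjusted p = 0.161). Lymphocyte markers had a median of -0.83 over 9 tested members, with 0 called, and leaving out sham replicate 1 or 2 gave 0.09 or -2.07. Neutrophil markers had a median of 1.11 over 5 tested members, with 0 called, which was 0.38 without knockdown replicate 1 and 1.83 without replicate 2. Ccl8 was the 1 called gene of 21 chemokines and receptors (4.76%, against 0.138% of all genes, with a median of 0.28).

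The remaining lists had no called member. Their medians were 0.16 for 32 ribosomal proteins, 0.04 for 17 antigen presentation genes, 0.03 for 23 genes of TGF-beta and BMP signalling, 0.00 for 24 genes of the unfolded protein response and -0.14 for 20 glucocorticoid and FoxO responsive genes. Splicing factors had a median of -0.05 over 28 members and clock genes of -0.01 over 19. Markers of other cells that a heart sample can hold had medians of -0.18 (12 Schwann and neural genes), -0.18 (8 adipocyte genes), 0.07 (9 skeletal muscle genes), 0.11 (9 atrial genes) and 0.53 (3 epicardial genes).

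**Figure D3:**
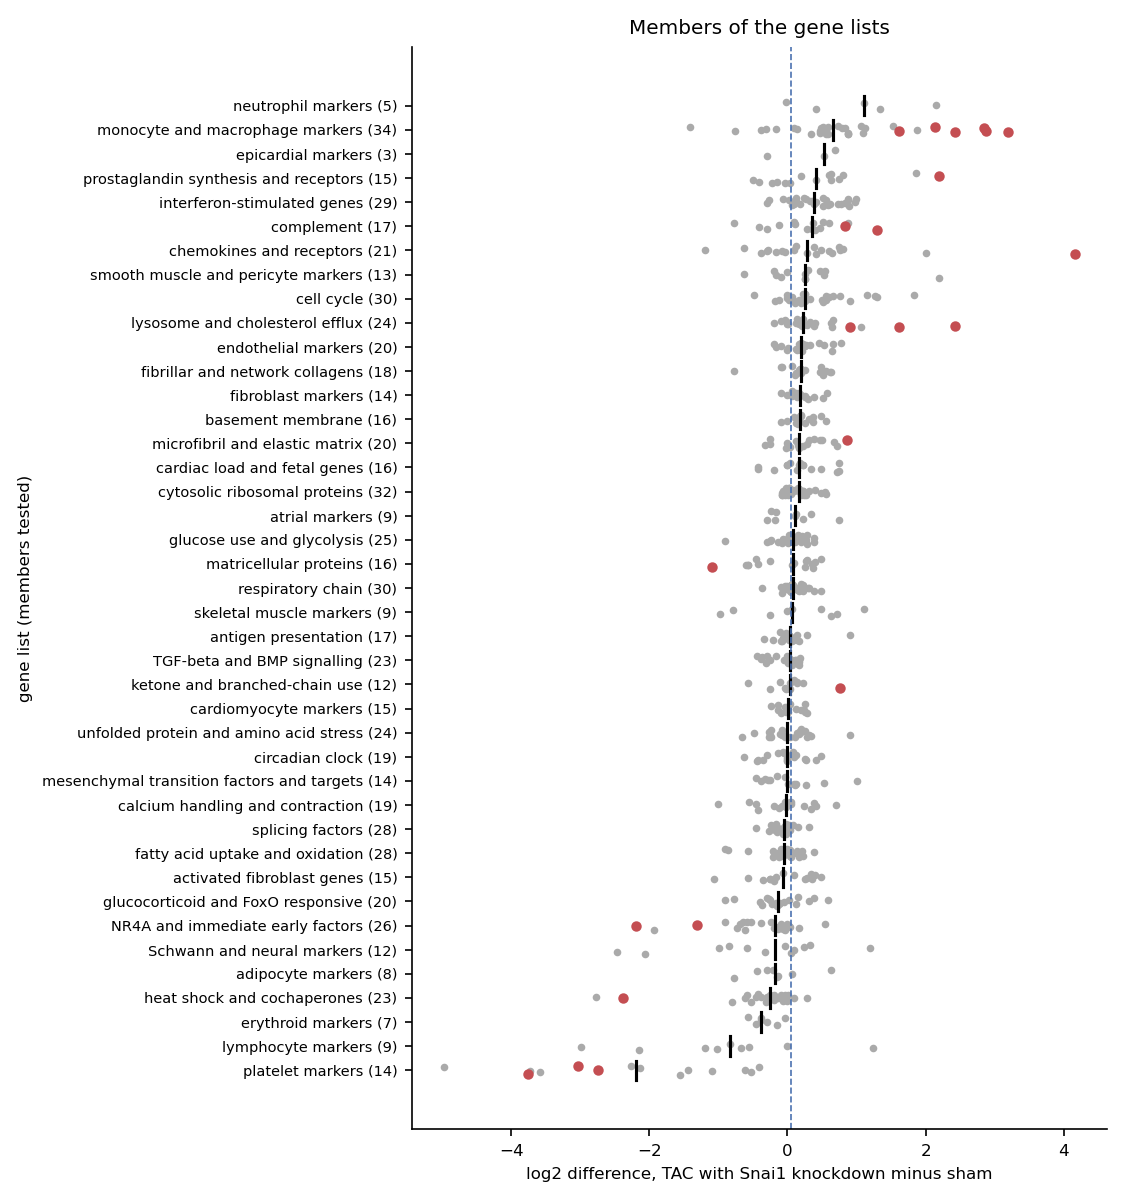
Log2 differences from sham of the tested members of 41 gene lists (horizontal), with the number of members in parentheses. Grey points are members that were not called, red points called members and black bars list medians; the dashed line is the median of all genes at 0.05. The platelet list lies farthest to the left with a median of -2.20, and the macrophage list holds the most red points (6).

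The next question was whether these changes differ from those under TAC alone. The direct comparison of the knockdown and TAC libraries tests this, since the sham libraries drop out of the difference. Of the 35 genes, 0 differed between TAC with knockdown and TAC alone (limma, adjusted p = 0.999 for each), and 0 of all 14447 did (smallest adjusted p = 0.796, with 300 at an unadjusted p below 0.05). Limma-voom and the robust prior also called 0, and a fit with the replicate number as a block called 1, Ptgds (adjusted p = 0.0345). At an unadjusted p below 0.05 were 4 of the 35, namely Nr4a1, Lilr4b, F5 and Rhobtb1. The 35 were picked for lying far from sham in these same knockdown libraries. That choice biases their differences from TAC, and the intervals below, toward knockdown lying farther from sham. Lilr4b, F5 and Rhobtb1 lay farther from sham with knockdown than in TAC alone, and Nr4a1 nearer.

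Nr4a1 stood at 18.2 and 15.2 CPM in TAC alone, below the 38.7 and 26.2 with knockdown and the 66.9 and 93.9 in sham. The log2 difference of knockdown minus TAC was 0.93, with a 95% interval of 0.51 to 1.36. Lilr4b stood at 13.8 and 17.1 CPM in TAC alone against 33.2 and 18.4 with knockdown, a difference of 0.69 with an interval of 0.13 to 1.25. F5 had 18 and 19 reads in TAC alone against 9 and 4, a difference of -1.46 (interval -2.67 to -0.25), and Rhobtb1 233.0 and 219.4 CPM against 173.5 and 182.6, a difference of -0.34 (interval -0.63 to -0.06). For Mpeg1 the difference was 0.27 with an interval of -0.18 to 0.73, for Nrgn 0.18 (interval -0.40 to 0.76) and for Fbn1 -0.14 (interval -0.41 to 0.13). A p that misses the threshold does not show that the groups were alike.

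The change from sham under TAC alone rests on the same sham libraries, so the values below stand side by side and are not independent. The log2 differences from sham were 2.13 with knockdown and 1.86 without for Mpeg1, 3.20 and 2.69 for Ms4a4a, 2.87 and 2.37 for Ms4a7, and 4.17 and 3.89 for Ccl8. They were -2.75 and -2.93 for Nrgn, -3.04 and -3.50 for Ppbp, -2.20 and -2.01 for Nr4a3, and -2.38 and -2.29 for Hspa1b. They were 0.86 and 1 for Fbn1, 0.76 and 0.92 for Bdh1, and -1.09 and -0.97 for Thbs1. For Nr4a1 they were -1.31 and -2.25.

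Between TAC alone and sham 12 genes rose (0.0831%) and 11 fell (0.0761%), and those not called with knockdown had these values, a processed pseudogene aside. Camk2b, a calcium-dependent kinase gene, had 17.4 and 19.9 CPM in sham, 9.01 and 8.13 in TAC alone and 13.4 and 14.3 with knockdown (log2 from sham -1.12 without and -0.42 ± 0.19 with knockdown). Slc8a1, the sodium-calcium exchanger, stood at 413.9 and 372.5, 611.2 and 618.5, and 487.9 and 559.3 CPM (0.65 and 0.41 ± 0.11). Tmem267 had log2 differences of 1.09 and 0.54 ± 0.20, and the cholesterol exporter gene Abca1 of 0.92 and 0.64 ± 0.15. Among genes with negative values, Itga2b had -2.64 and -2.26 ± 0.47, the splicing factor gene Sfpq -0.65 and -0.46 ± 0.12, the cardiac gene Lrrc10 -0.68 and -0.56 ± 0.12, the myosin gene Myh7b -0.67 and -0.35 ± 0.12, and the planar polarity gene Prickle3 -0.71 and -0.57 ± 0.13. None of these differed between knockdown and TAC by limma over all genes. They were picked for passing in TAC alone and not with knockdown, which favours smaller differences with knockdown.

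**Figure D4:**
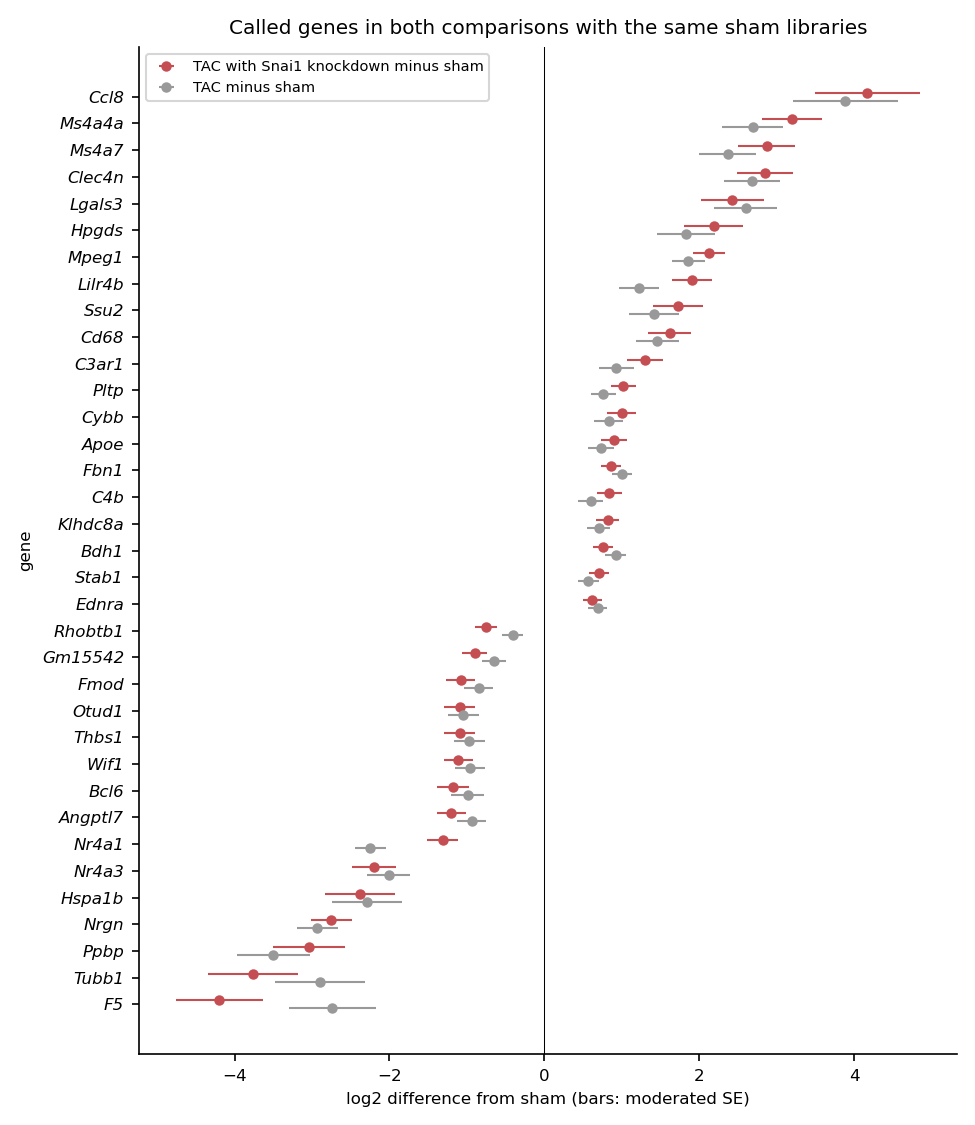
Log2 differences from sham of the 35 called genes in TAC with Snai1 knockdown (red) and in TAC alone (grey), with moderated standard errors as bars. Both sets share the 2 sham libraries, and the genes were picked by their calls with knockdown. Nr4a1 lies at -1.31 with knockdown and -2.25 without.

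The calls depended on single libraries. Without sham replicate 2, 3 genes were called higher and 2 lower, and without sham replicate 1, 25 and 25. Without knockdown replicate 1 the counts were 1 and 8, and without knockdown replicate 2 they were 15 and 4. Leaving out a TAC library, which changes only the estimate of spread, gave 10 and 12 (replicate 1) and 9 and 12 (replicate 2). Mpeg1 and Nrgn were called in all 6 fits, 3 genes (Ms4a4a, Clec4n and F5) in 5, 7 in 4, and 7 in none (Wif1, C3ar1, Klhdc8a, Ssu2, Cybb, Stab1 and Ednra). All 35 kept their sign in each fit. Since their groups do not overlap, leaving out a library could not turn it. The genes next below the threshold were Frmd5 (log2 -0.64, limma adjusted p = 0.0507), the purine receptor gene P2ry13 (2.86, adjusted p = 0.0527) and Arhgap19 (1.48, adjusted p = 0.0572).

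**Figure D5:**
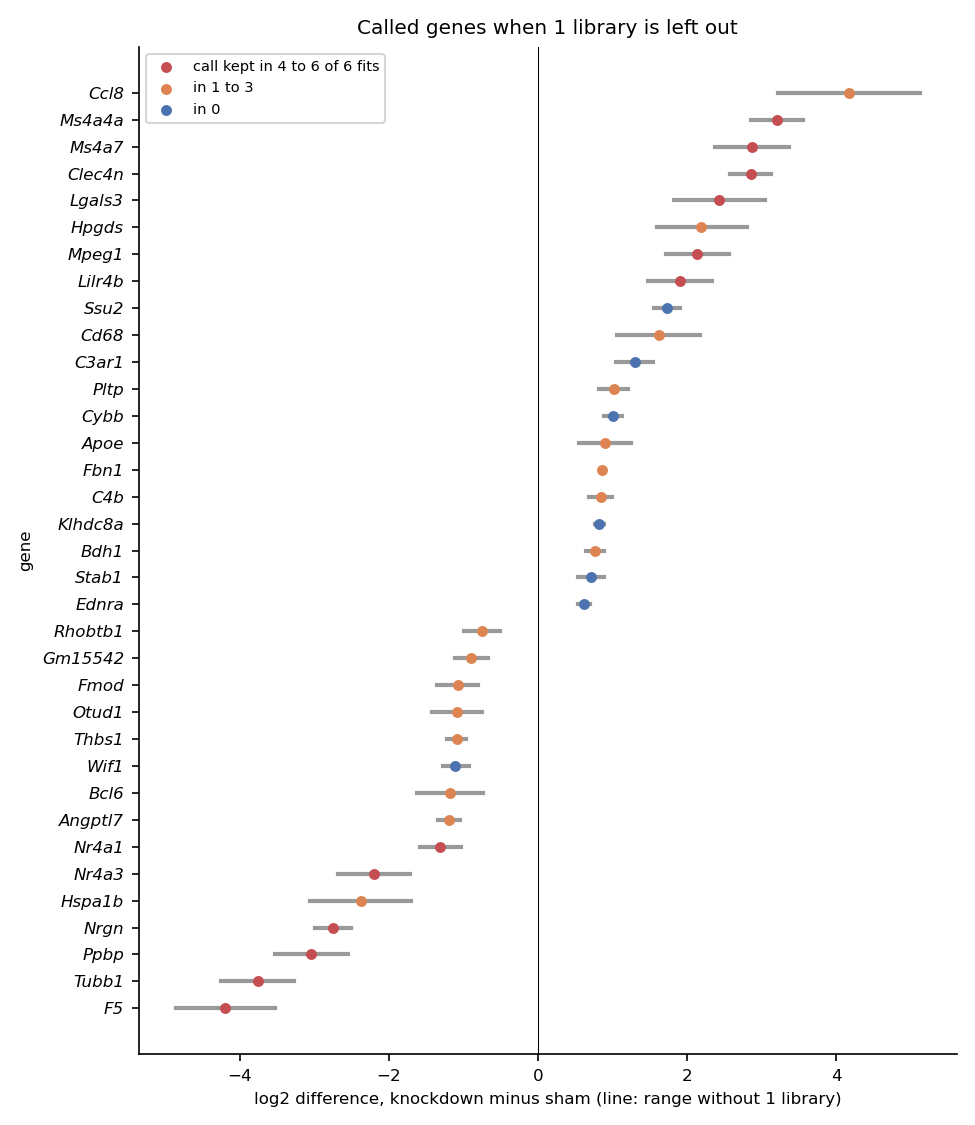
Log2 difference from sham of the 35 called genes (points) with the range over the 6 fits that each leave out 1 library (lines). Red points kept their call in 4 to 6 fits, orange in 1 to 3 and blue in 0; Mpeg1 ran from 1.71 to 2.56 and Nrgn from -2.99 to -2.51.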

How the data were processed

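RNA-seq libraries of mouse heart were compared, 2 per group in 3 groups. The authors deposited 1 table of log2 values for 19320 genes in 6 columns. Limma and the mouse build mm10 are named in the submitters' processing notes. For the aligner, counter, strand setting and annotation: not given in the sources used here. The deposited log2 values, once back-transformed, are not whole numbers, but those of the 2 columns of each group resolved as 60:40 and 40:60 mixtures gave whole reads for 99.9% of 115920 values (tolerance 0.05) with 0 negative; first shares of 55%, 65% and 70% gave 57.3%, 22.6% and 30.9%. The mixing was inferred from the values and is recorded in no source.

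The resolved reads were analysed as log2 CPM, scaled by library totals, with 0.5 reads added. Genes were kept that reached the CPM of 10 reads in at least 2 libraries and 15 reads in all, which removed 4873 genes with 0.0583% of reads. Limma 3.58.1 (R 4.3.3) with a trended prior was fitted to all 6 libraries, and p-values were adjusted by Benjamini and Hochberg over 14447 genes. The median standard error was 0.19. Between the 2 libraries of a group the SD of log2 differences was 0.22 in sham, 0.21 in TAC and 0.19 with knockdown, over 5246 genes. The fit was tested on simulated data. Depth ran from 14835957 to 18247812 reads.

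Genes were named by rule. These were Snai1, all called genes, genes called between TAC alone and sham, and the 3 next in p outside the threshold. Genes that have only a Gm number were counted and not described. Each list with a call gave its called members and the next few by absolute moderated t. A list without a call gave up to 4 members of largest absolute moderated t. Ccr2, Timd4, Lyve1, Trem2, Pf4, Nr4a2, Fos, Hspa8, Snai2, Col1a1, Col3a1, Postn, Nppb, Cd300a and Ms4a14 fell outside this rule and were chosen after their values were seen. Gene symbols are those of the deposited table. The members and the 41 lists were chosen with earlier results of these data known. Positions are from GENCODE M21 (GRCm38) and promoters from RefSeq.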

Additional observations from a re-analysis of the deposited data

How the results depend on the processing

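Against 20 genes higher and 15 lower, quantile normalization called 13 higher, no filter on low counts 7 higher and 7 lower, limma-voom 6 higher and 12 lower, and the fit of only the sham and knockdown libraries 9 higher and 13 lower; the cause was not tested. The share called higher was 57.1% of the 35, and 33.3% and 40.9% in the latter 2 fits. Leaving out 1 library gave 1 to 25 genes higher and 2 to 25 lower. The deposited columns taken as they are, which share reads within a group by construction, called 7993 higher and 5676 lower of 19320, and Snai1 at a log2 difference of -0.47, past the threshold. For knockdown against TAC they called 12137 of 19320 genes, 71 of the genes named here among them. The labels do not tell whether the replicate numbers pair the samples. Deviations of same-numbered libraries correlated at -0.22 (sham and TAC), 0.13 (sham and knockdown) and -0.13 (TAC and knockdown). With 2 libraries per group these values cannot settle the question. With a replicate block in the fit, 19 genes were higher and 17 lower, 31 of them among the 35, and Ptgds differed between knockdown and TAC (limma adjusted p = 0.0345). Median ratio scaling moved the median of all genes from 0.05 to 0. All 35 called genes kept their direction in each alternative in which they were tested, the filter on a mean of 50 reads leaving 32 of them. The alternatives refit the same libraries, in which the groups of these genes do not overlap, so the direction was largely fixed in advance. With 2 libraries per group, genes at a few reads, such as Ccl8 in sham, have wide errors at this depth.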
